A study of Rattus norvegicus with 8 samples.

Results

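Cholecystokinin (CCK), encoded by *Cck*, and its receptors, encoded by *Cckar* and *Cckbr*, were followed in the *substantia nigra* (SN) of rats that received a viral vector for human α-synuclein (αSyn) or a null vector. The members were all probes whose RefSeq accession maps to one of these 3 genes, which gave 3 of the 16678 genes with a symbol on the array and 4 of its 45598 probes: 1 for *Cck* (A_64_P120679, NM_012829), 1 for *Cckar* (A_64_P014929, NM_012688) and 2 for *Cckbr* (A_64_P101130 and A_44_P1164566, both NM_013165). The genes were chosen by a measured value, the level of *Cck*, already known to be evenly lower in the AAV-αSyn group. The group differences of the 3 genes are therefore descriptions and carry no test.

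CCK is a neuropeptide that many midbrain dopaminergic (DA) neurons release together with dopamine, and neurons of the thalamus, cortex and hippocampus also make its RNA. The precursor is cut by prohormone convertases, sulphated on tyrosine, trimmed by carboxypeptidase E and amidated before it is released from dense-core granules. CCKBR is the main CCK receptor of the brain and also binds gastrin, while CCKAR prefers the sulphated peptide and is found at few brain sites. Both receptors couple to Gq, which acts through phospholipase C, inositol trisphosphate receptors and protein kinase C.

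Adult female Sprague Dawley rats, 3 months old at surgery, received 1 unilateral injection of vector into the SN. The AAV-Null group received AAV6-Null at 5.3e9 vector genomes per µL, and the AAV-αSyn group received AAV6-αSyn, which carries wild-type human αSyn, at 5.2e10 vector genomes per µL. The injected SN was taken 20 weeks later, and its total RNA was labelled with Cy3 and hybridised to 1-colour Agilent arrays, 4 per group. The transgene and the titre differ together between the groups, so their effects cannot be told apart, and the promoter of the transgene is not given in the sources used here. The methods state 3 biological replicates per group where 4 arrays per group were deposited, so all 8 were analysed, and the labels do not say that each array holds a separate animal. If any share an animal, the p-values measure spread that is partly technical.

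All 8 arrays lay on 1 slide and came from 1 scan, and each side of the slide held 2 arrays of each group. Between 74.8% and 77.5% of the spots on an array were well above background, Feature Extraction called 268 to 418 outliers and 0 saturated spots per array. *Th*, the defining DA enzyme, was between 15.88 and 16.70 on the log2 scale of normalized intensity on every array, so DA tissue was present in all 8 dissections. All values below are log2 of normalized intensity, a scale on which values of 1 probe can be compared between arrays but values of different probes cannot.

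The 4 AAV-αSyn arrays lay below the 4 AAV-Null arrays for *Cck*, and its receptors showed no such separation. Of the listed genes tested, 16 of 19 for DA neurons and 7 of 8 for thalamus had negative differences, to differing degrees. After adjustment for the number of probes tested, 0 of them were called. AAV-Null replicates 1 to 4 had *Cck* levels of 15.79, 15.80, 16.04 and 15.88. AAV-αSyn replicates 1 to 4 had levels of 15.11, 15.11, 15.22 and 14.94. The nearest arrays of the groups, AAV-Null replicate 1 and AAV-αSyn replicate 3, were 0.57 apart. The AAV-Null mean was 15.88 ± 0.12 (SD, n = 4) and the AAV-αSyn mean 15.10 ± 0.12 (SD, n = 4), a difference of −0.78 (standard error 0.091). On the linear scale the AAV-αSyn level was 0.582 times the AAV-Null level, or 41.8% lower. In bulk tissue, fewer *Cck* neurons and less *Cck* RNA per neuron cannot be told apart.

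The arrays of each group spanned a range narrower than the gap between the groups. Over the whole array, 428 of 33836 probes with a value on every array (1.26%) were lower without overlap between the groups, and 2.57% were higher without overlap. *Cck* had rank 3 among all probes for the gap between its lowest AAV-Null and its highest AAV-αSyn array, and rank 42 of the 428 for the size of its mean difference. Both ranks come from the contrast on which the gene was selected and were shaped by that choice.

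**Figure D1:**
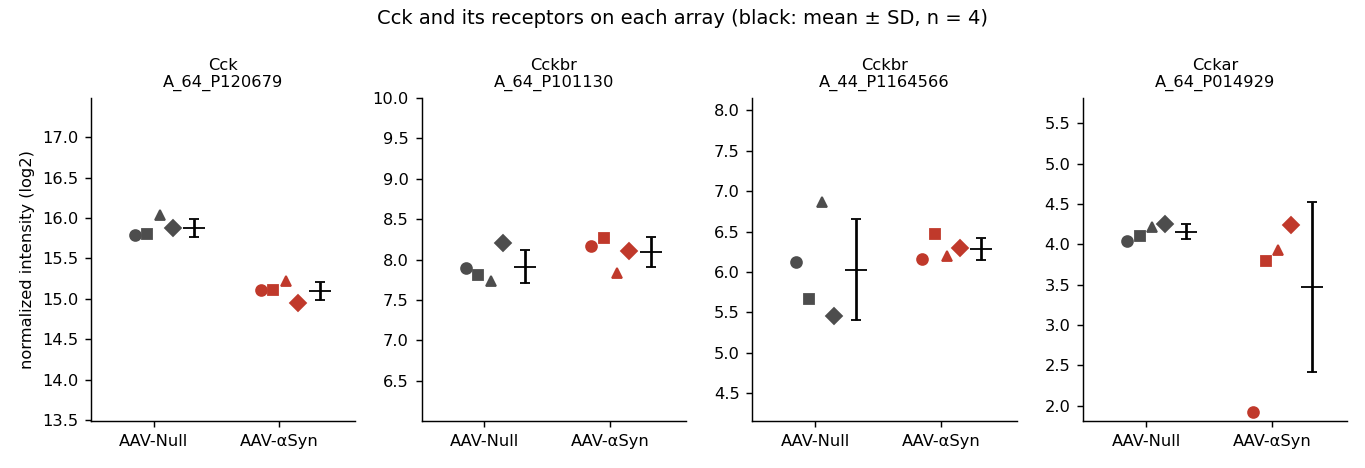
Log2 normalized intensity (vertical axis, the same span of 4 in each panel) of the 4 probes on each array, by group, with circles, squares, triangles and diamonds for replicates 1 to 4 and the mean ± SD in black. The *Cck* groups are 0.57 apart at their nearest arrays, both *Cckbr* probes overlap, and *Cckar* has 1 low AAV-αSyn array, at 1.92.

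The array carries 10 spots of the *Cck* probe, which gives 10 readings of each labelled sample. The standard deviation over these spots was between 0.027 and 0.075 within an array, below the 0.12 between arrays of a group. The lowest spot on any AAV-Null array read 15.73 and the highest on any AAV-αSyn array read 15.29. Not 1 of the 80 readings crossed into the range of the other group. Taken spot position by spot position, the difference was between −0.80 and −0.73, and the groups did not overlap at 10 of 10 positions. The spots of an array share 1 labelled sample, so they measure the error of the array and not that of the animals.

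**Figure D2:**
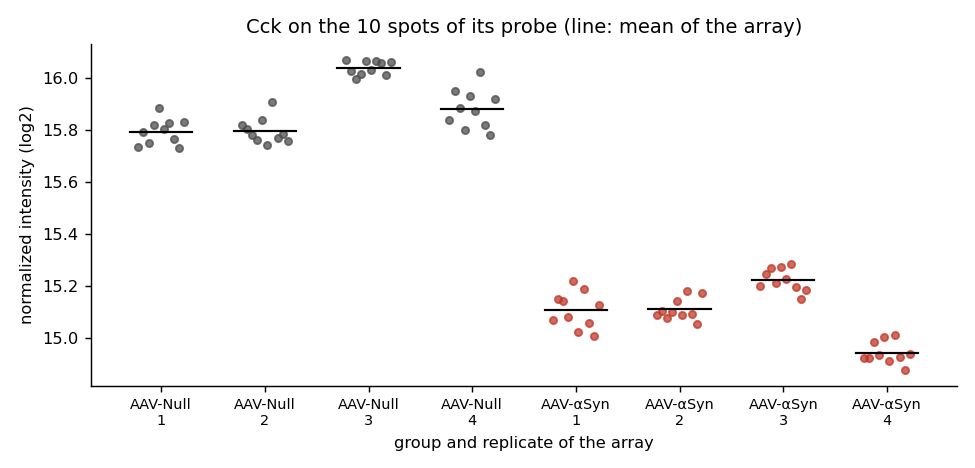
Log2 normalized intensity of *Cck* (vertical axis) on the 10 spots of its probe, for each group and replicate (horizontal axis), with the mean of each array as a line. The AAV-Null spots start at 15.73 and the AAV-αSyn spots end at 15.29.

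The separation was present before the arrays were normalized. The processed intensity of *Cck*, as the median over its spots, was 57010, 56767, 64402 and 62541 on the AAV-Null arrays and 38222, 31833, 37376 and 33707 on the AAV-αSyn arrays, against a local background of about 30. *Cck* was thus far above background and below saturation on every array. On side 1 of the slide the mean difference was −0.67 and on side 2 it was −0.89, each from 2 arrays per group. With 1 array left out at a time it stayed between −0.82 and −0.72, and the 12 other ways of processing that could be applied to its probe gave −0.81 to −0.71.

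For *Cckbr*, the gene of the main brain CCK receptor, the brighter probe (A_64_P101130) read 7.90, 7.81, 7.74 and 8.20 in replicate order on the AAV-Null arrays and 8.16, 8.26, 7.84 and 8.11 on the AAV-αSyn arrays. The difference was 0.18 (standard error 0.13), and the highest AAV-Null array lay above 3 of the 4 AAV-αSyn arrays. The other probe (A_44_P1164566) read 6.13, 5.67, 6.87 and 5.45 on the AAV-Null arrays and 6.16, 6.47, 6.20 and 6.30 on the AAV-αSyn arrays. Its difference was 0.25 (standard error 0.28), and the range of the AAV-Null arrays enclosed that of the AAV-αSyn arrays. The 2 probes ordered the AAV-Null arrays differently: replicate 3 was the lowest on the first and the highest on the second, and replicate 4 the highest on the first and the lowest on the second. The second probe was 0.62 higher in the AAV-αSyn group on side 1 of the slide and −0.11 on side 2, while the first was −0.0036 and 0.37. The *Cckbr* readings therefore gave no separation of the groups, and which array was high depended on the probe.

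*Cckar*, the gene of the receptor that prefers sulphated CCK, lay close to the detection limit. It read 4.05, 4.11, 4.21 and 4.25 on the AAV-Null arrays and 1.92, 3.80, 3.93 and 4.24 on the AAV-αSyn arrays. The lowest value called well above background anywhere on an array was between 2.93 and 3.62, and the *Cckar* spot on AAV-αSyn replicate 1 was not well above background. The other 7 arrays were. The means were 4.16 ± 0.095 (SD, n = 4) and 3.47 ± 1.05 (SD, n = 4), a difference of −0.68 (standard error 0.46). Without AAV-αSyn replicate 1 the difference was −0.17, and with a normexp background correction it was −0.073, so most of it came from a reading at background on 1 array.

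*Cck* was read beside the genes of DA neurons, where the peptide is a cotransmitter. Of 20 DA genes listed, 19 were tested, and their differences had a median of −0.33, where the median over all probes tested was 0.0083. By limma's test, 7 of the 19 were lower at an unadjusted p under 0.05, against 2.32% of all probes in that direction, and 0 were higher, against 3.31% of all probes. None was past the Benjamini–Hochberg adjustment, which 5 of 33853 probes passed (0.0148%). The 7 were *Th*, *Slc6a3* (dopamine transporter), *Ddc* (dopa decarboxylase), *Drd2* (dopamine autoreceptor), the transcription factors *Pitx3* and *Foxa1*, and *Chrna6* (a nicotinic receptor subunit). The groups did not overlap for *Th*, *Ddc*, *Drd2* and *Foxa1*. *Foxa1* had another tested probe, with a difference of −0.031 (limma's unadjusted p = 0.898), and the other tested probes of *Ddc* gave −0.23 and −0.30 (0.145 and 0.0891). Leaving out 1 array ended the call of *Ddc* in 4 of 8 comparisons (AAV-αSyn replicates 1, 2 and 3 and AAV-Null replicate 1, limma's unadjusted p up to 0.0783) and that of *Chrna6* in 5 of 8 (AAV-αSyn replicates 1, 2 and 4 and AAV-Null replicates 1 and 3, up to 0.0923).

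The difference of *Cck*, −0.78, lay beside −0.79 (standard error 0.25) for *Slc6a3* and −0.78 (standard error 0.25) for *Pitx3*, whose groups overlapped. *Th* differed by −0.52 (standard error 0.096, limma's unadjusted p = 0.000604, adjusted p = 0.484) and *Drd2* by −0.33 (standard error 0.090). *Lmx1a* was also near it, at −0.78 (standard error 0.39) on its brighter probe and −0.18 on its other probe. The difference of *Cck* thus lay beside the most negative ones of the DA list. The gap between its groups was wider than that of *Th*, but *Cck* was selected for its even separation, so this comparison is a description. The highest AAV-αSyn *Th* array read 16.01 and the lowest AAV-Null *Th* array 16.30.

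Neurons of the ventral tegmental area (VTA), beside the SN, are rich in *Cck*, and a list of 10 genes of such cells was tested whole. Their median difference was −0.26, and −0.13 without AAV-Null replicate 4. Of the 10, 3 were lower at the unadjusted threshold and 0 were higher, against 2.32% and 3.31% of all probes. *Otx2*, a transcription factor of VTA neurons, read 10.94, 10.91, 10.68 and 10.88 on the AAV-Null arrays and 10.19, 10.52, 10.29 and 10.47 on the AAV-αSyn arrays. The groups did not overlap, and its difference was −0.49 (standard error 0.10, limma's unadjusted p = 0.00143, adjusted p = 0.555). *Ntsr1*, a neurotensin receptor, differed by −0.57 (standard error 0.12), again without overlap. *Grp*, which encodes gastrin-releasing peptide, differed by −0.81 (standard error 0.31), with overlap, and was no longer at the threshold without AAV-Null replicate 3 or without AAV-αSyn replicate 1 or 4 (limma's unadjusted p up to 0.0739). *Otx2* and *Cck* shared their group difference but not their order within groups. AAV-Null replicate 3 had the highest *Cck* and the lowest *Otx2* of its group, and the correlation of their deviations from the group means over the 8 arrays was −0.69.

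**Figure D3:**
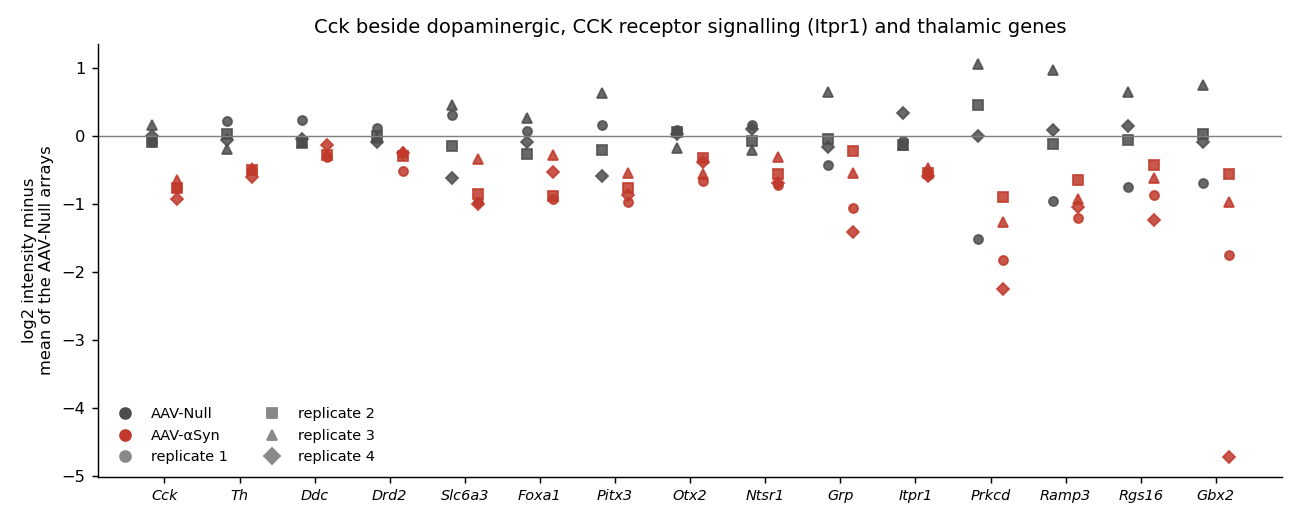
Log2 intensity minus the mean of the AAV-Null arrays (vertical axis) for *Cck* and genes of DA neurons, CCK receptor signalling and thalamus, with 1 point per array and a shape per replicate. The *Cck* arrays of each group lie close together, which is what the gene was selected on. *Prkcd* on AAV-Null replicate 1 lies among the AAV-αSyn arrays, and *Gbx2* reaches its lowest value on AAV-αSyn replicate 4.

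The thalamus lies above and in front of the SN and is another rich source of *Cck* RNA, so its genes were read on the same arrays. Of 12 listed, 8 were tested. Their median difference was −0.77 (between −1.19 and −0.42 when an array was dropped from each group, where *Cck* was between −0.85 and −0.67). At the unadjusted threshold 5 of the 8 were lower and 0 higher, against 2.32% and 3.31% of all probes. Past the adjustment were 0, against 0.0148% of all probes. The 5 lower genes were *Prkcd* (a protein kinase C isoform of thalamic neurons), *Gbx2* (a thalamic transcription factor), *Ramp3*, *Plekhg1* and *Rgs16*. The groups overlapped for all 5. The count was 2 without AAV-Null replicate 2, 3 or 4 or AAV-αSyn replicate 1, 3 without AAV-αSyn replicate 3 and 1 without AAV-αSyn replicate 4.

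*Prkcd* read 10.96, 12.94, 13.54 and 12.48 in replicate order on the AAV-Null arrays and 10.65, 11.58, 11.21 and 10.22 on the AAV-αSyn arrays. Its difference was −1.56 (standard error 0.54). AAV-Null replicate 1 was lower than AAV-αSyn replicates 2 and 3. To set *Cck* against the whole list, each gene was centred on its mean over the 8 arrays and the median over the genes was taken per array. This thalamic score was −0.26, 0.38, 1.22 and 0.47 on the AAV-Null arrays and −0.53, −0.10, −0.24 and −0.66 on the AAV-αSyn arrays. The scores of the groups overlapped at AAV-Null replicate 1, which lay below AAV-αSyn replicate 2 and, by a small step, below AAV-αSyn replicate 3.

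The highest *Cck* level in the series, on AAV-Null replicate 3, came with the highest thalamic score, and the lowest, on AAV-αSyn replicate 4, with the lowest. Among the thalamic genes, *Rgs16* followed *Cck* most closely within groups (correlation of deviations from group means 0.81, 8 arrays), with *Gbx2* at 0.78 and *Prkcd* at 0.67. Over all 8 thalamic genes these correlations ran from −0.14 (*Tnnt1*) to 0.81 with a median of 0.68, and over the 19 DA genes from −0.79 (*En2*) to 0.66 (*Lmx1b*) with a median of −0.019, so the lists overlapped. These correlations rest on 8 arrays that share their normalization and are given as descriptions.

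The score of the DA genes was 0.40, 0.04, 0.19 and −0.12 on the AAV-Null arrays and −0.36, −0.22, 0.029 and −0.17 on the AAV-αSyn arrays. The scores of the groups overlapped at AAV-Null replicate 4, which lay below AAV-αSyn replicate 3. Since *Cck* was selected for levels that separate the groups, any overlap of scores comes with *Cck* levels that do not overlap, and these pairs of values are descriptions. How much of the *Cck* difference goes with the share of DA or thalamic tissue in the dissections was not tested.

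**Figure D4:**
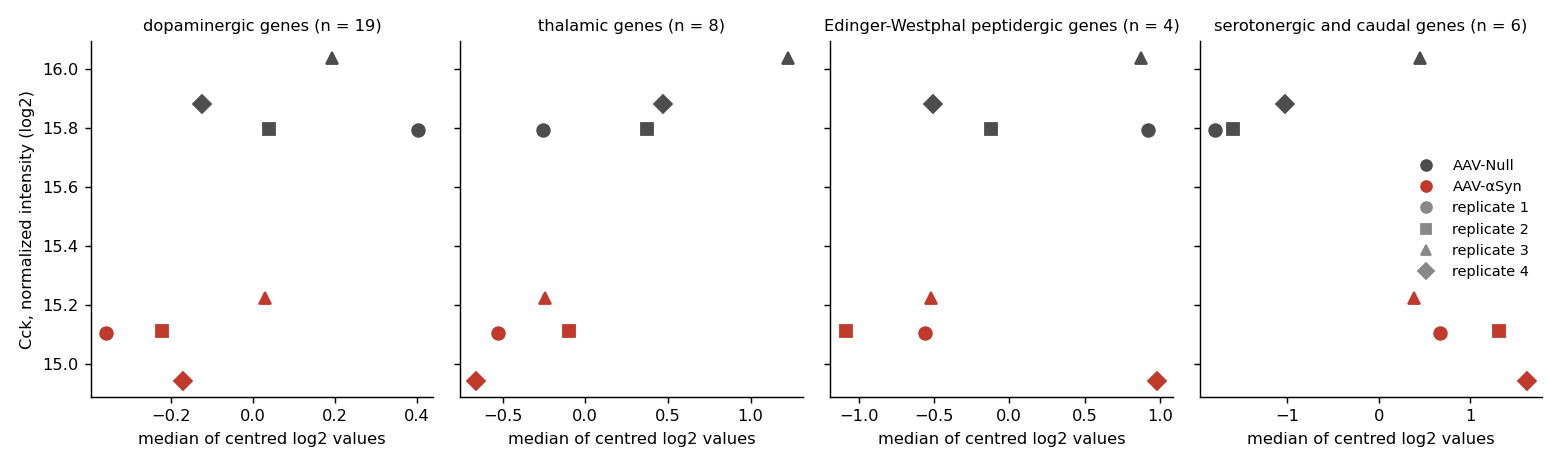
Log2 intensity of *Cck* (vertical axis) against the score of each of 4 gene lists (horizontal axes, median of values centred over the 8 arrays), with 1 point per array. The scores of the groups overlap in all 4 panels, for example at AAV-Null replicate 1 on the thalamic score (−0.26) and AAV-Null replicate 3 on the serotonergic and caudal score (0.45), while the gap along the *Cck* axis is what the gene was selected on.

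A list of 4 genes stood for peptidergic neurons of the Edinger-Westphal nucleus, near the midline of the midbrain. Of these, *Ucn* and *Cartpt* varied strongly between arrays without following the groups. The standard error of the difference was 1.03 for *Ucn* and 0.83 for *Cartpt*, against 0.19 for *Tac1* (difference 0.033) and 0.20 for *Postn* (difference −0.11). *Ucn*, which encodes urocortin, ranged from 9.45 to 13.36 in the AAV-Null group and from 9.23 to 12.93 in the AAV-αSyn group. *Cartpt* varied likewise, from 12.02 to 14.91 and from 11.31 to 14.63. AAV-αSyn replicate 4 held the most of both in its group and the least *Cck* of all 8 arrays. The list of 4 genes had a median difference of −0.58, with 0 at the unadjusted threshold in either direction. It was −1.05 when probes had to be above background on at least 4 arrays, which removed *Postn*, above background on 2, and leaving out 1 array moved the median to between −0.92 (without AAV-αSyn replicate 4) and −0.26 (without AAV-Null replicate 3).

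Genes of serotonergic and other more caudal neurons went the other way from *Cck*. The 6 tested had a median difference of 1.88, and 4 were higher at the unadjusted threshold, against 3.31% of all probes. One of the 4, *Dbh*, was above background on 3 arrays, all of the AAV-αSyn group, and so entered the test only through the group where it was high. With probes required above background on at least 4 arrays, *Dbh* dropped out and the median was 1.54, and with a normexp background correction it was 1.09. Of all genes in the lists, only *Slc6a5*, a glycine transporter of hindbrain inhibitory neurons, rose past the adjustment (log2 difference 1.28, standard error 0.12, limma's adjusted p = 0.0424). With 1 array left out, limma's adjusted p was between 0.0498 and 0.198 and under the threshold in 1 of 8 comparisons, that without AAV-αSyn replicate 2. Over 13 processing alternatives it was between 0.00823 and 0.396 and under the threshold in 8. The score of this list was −1.79, −1.60, 0.45 and −1.03 on the AAV-Null arrays and 0.66, 1.31, 0.38 and 1.62 on the AAV-αSyn arrays. The scores of the groups overlapped at replicate 3, though the genes differed in this: *Slc6a5* read 7.84 on the AAV-Null array of that number against 8.98 on its AAV-αSyn counterpart, and *Tph2*, the serotonin-synthesis enzyme, 10.61 against 10.59. The part of the position of the dissections in the *Cck* difference was not tested.

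Other cells that make *Cck* were represented by short lists. Over all probes, 2.32% were lower and 3.31% higher at the unadjusted threshold. Cortical and hippocampal genes had a median difference of 0.28 (6 tested, 1 lower and 1 higher at the unadjusted threshold), and a list drawn up for *Cck* interneurons had a median of 0.31 (6 tested, 0 lower and 2 higher), which was 0.084 without AAV-αSyn replicate 4. The 2 were *Cnr1*, the cannabinoid receptor found on CCK basket cells, at 0.41 (standard error 0.12), and *Sst*, which encodes somatostatin, at 0.43 (standard error 0.11). For both, the lowest AAV-αSyn array lay above the highest AAV-Null array. *Sst* and *Npy* of this list mark interneurons other than the CCK cells, and *Reln* and *Htr3a* had differences of −0.20 and −0.22, so the list has no common direction. The cortical median was −0.075 without AAV-Null replicate 1. Medians were 0.14 for GABAergic genes (4 tested), 0.038 for genes of all neurons (6 tested, 1 lower and 0 higher at the unadjusted threshold) and 0.062 for glial genes (10 tested). The 1 lower gene was *Syt1*, which encodes a calcium sensor of vesicle release, at −0.40 (standard error 0.11, limma's unadjusted p = 0.00726, adjusted p = 0.675).

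The genes that turn the CCK precursor into peptide were on balance level between the groups. The 11 processing genes had a median difference of −0.00060, with differences between −0.23 and 0.25. *Pcsk1*, one of the convertases of neuroendocrine cells, differed by 0.20 (standard error 0.16) on its brighter probe and by −0.31 on its other probe (limma's unadjusted p = 0.227 and 0.0532). With 1 array left out the brighter probe gave 0.12 to 0.35 and passed the unadjusted threshold in 1 of 8 comparisons. With array weights it gave 0.31 (limma's unadjusted p = 0.0274). *Pcsk2*, the other convertase, differed by −0.14 (standard error 0.18). *Cpe*, which encodes carboxypeptidase E, differed by −0.18 (standard error 0.086, limma's unadjusted p = 0.0684). It read 14.78, 14.83, 15.04 and 14.99 on the AAV-Null arrays and 14.66, 14.78, 14.81 and 14.67 on the AAV-αSyn arrays, and its deviations followed those of *Cck* with a correlation of 0.82 over 8 arrays. *Pcsk5*, a convertase that also cuts pro-CCK, was the 1 gene of the list at the unadjusted threshold, where 3.31% of all probes were higher. It differed by 0.25 (standard error 0.076, limma's unadjusted p = 0.0110, adjusted p = 0.728). Its other probe gave 0.013 (limma's unadjusted p = 0.948). The 8 dense-core granule genes tested, among them the chromogranins *Chga* and *Chgb*, had a median of −0.038 and 0 at the unadjusted threshold. The lower *Cck* level was thus not shared by the list of granule genes.

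Downstream of the receptors, 16 genes of the Gq pathway and its regulators had a median difference of −0.070, and 1 was lower at the unadjusted threshold, a share of 6.25% where 2.32% of all probes were called. This was *Itpr1*, an inositol trisphosphate receptor, which read 11.97, 11.89, 11.90 and 12.37 on the AAV-Null arrays and 11.46, 11.49, 11.56 and 11.44 on the AAV-αSyn arrays. The difference was −0.55 (standard error 0.12, limma's unadjusted p = 0.00148, adjusted p = 0.555), and the groups did not overlap. *Arrb1*, which encodes an arrestin that uncouples receptors, differed by −0.17 (standard error 0.078, limma's unadjusted p = 0.0622) on its brightest probe, whose groups did not overlap, and by −0.23 and 0.079 on its other probes. *Plcb4*, a phospholipase C isoform, differed by −0.23 (standard error 0.10). *Gast*, whose product gastrin shares CCKBR with CCK, differed by −0.27 (standard error 0.22), and by −0.41 to −0.090 with 1 array left out. With 4 peptidase genes it formed a list whose median was 0.0061 (−0.081 to 0.11 with 1 array of each group left out). In this list 0 were lower and 1 higher at the unadjusted threshold, against 2.32% and 3.31% of all probes. The 1 higher gene was *Enpep*, which encodes aminopeptidase A and differed by 0.33.

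**Figure D5:**
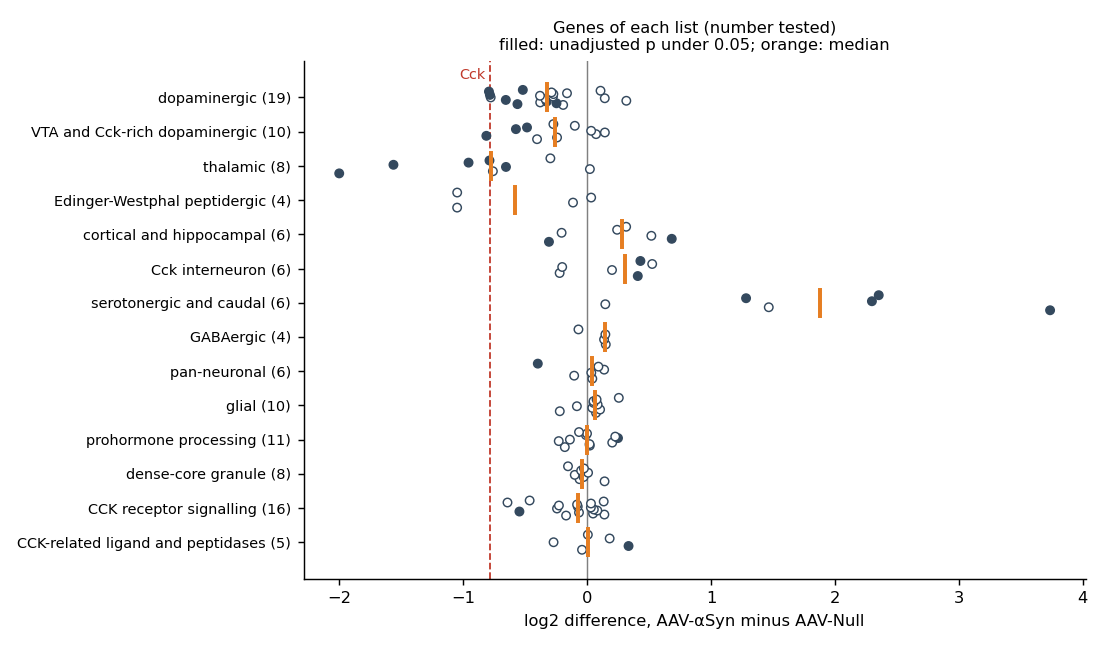
Log2 difference of each tested gene, AAV-αSyn minus AAV-Null (horizontal axis), by list with the number tested, with filled points for an unadjusted p under 0.05 by limma's test, the list's median in orange and *Cck* as a dashed line. The thalamic median (−0.77) lies at the *Cck* line (−0.78), the DA median (−0.33) between it and 0, and the processing and granule lists around 0.

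Across the 12591 named genes above background on every array, the pattern most like that of *Cck* over the 8 arrays was that of *Or6x1* (Pearson r = 0.94). *Ltb* (0.94), *Atp2a3* (0.94), *Mtarc2* (0.93) and *Map4k1* (0.93) came next, and their own differences were between −0.57 and −0.18. Such values are carried by the group difference on which *Cck* was selected. With the group means removed, *Fuz* (0.98), *C15h14orf93* (0.97), *Iba57* (0.97), *Hif3a* (0.96) and *Elmod3* (0.96) were the most alike. No gene was among the first 5 by both measures. *Or6x1* (3.95 to 4.72 over the 8 arrays) and *Hif3a* (4.11 to 4.74) were read close to the detection limit. Of the genes in the lists, *Itpr1* (0.87), *Ntsr1* (0.86), *Syt1* (0.86) and *Th* (0.86) were the 4 nearest to *Cck* over the 8 arrays, and their correlations within groups were 0.12, 0.075, 0.44 and −0.36.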

How the data were processed

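Total RNA of the injected SN was labelled with Cy3 and hybridised to 1-colour Agilent arrays. The deposited scanner files hold, for each spot, the background-subtracted intensity that the authors obtained with Agilent Feature Extraction (version 12.0.3.2 per the file headers, 11.5.1.1 per the submitters' processing notes). The deposited matrix of the authors holds quantile-normalized log2 values and served as an alternative. Groups came from the labels.

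Control and outlier spots were left out, as were probes well above background on 0 arrays (a share of at least 0.5 of a probe's spots). Processed intensities were taken to log2, quantile normalized and averaged per probe in R 4.3.3 with limma 3.58.1. The 33853 probes left were compared by limma's moderated test (lmFit and eBayes), two-sided, with Benjamini–Hochberg adjustment over all of them. The test was also run on simulated arrays whose probes vary independently, which leaves out the variation that real probes share. The number of arrays limits the precision. Probes were named by RefSeq accession, which gave 21229 of 45598 probes a symbol; a gene of a list was read by its brightest tested probe.

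The 3 member genes and the 14 gene lists were chosen with earlier results of these data known, so no count over a list is independent support. Any gene of a list could be named, first those without overlap between groups, then those of largest difference; the 5 genes most like *Cck* were those with the highest Pearson r. Alternatives were other scalings, background corrections, filters on dim probes, variance models, blocks and probe rules, and leaving out arrays.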

Additional observations from a re-analysis of the deposited data

Results flagged for a closer look

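Of 98 groups of 4 arrays examined, 3 had 1 array set apart from the others, where chance gives 4.9. The measure is the gap to the nearest array over the range of the group. For *Itpr1*, AAV-Null replicate 4 read 12.37 and the rest of its group 11.89 to 11.97 (0.848). The same array had a VTA gene score of 0.37 against 0.018 to 0.062 in the rest of its group (0.875). Its GABAergic gene score was −0.37 against −0.022 to 0.049 (0.830). *Cck* on AAV-Null replicate 4, at 15.88, lay inside the range of its group, and without that array its difference was −0.79.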

How the results depend on the processing

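The differences of *Cck*, *Cckar* and the brighter *Cckbr* probe kept their signs under the processing alternatives that could be applied to them (12, 11 and 12), the 8 comparisons with 1 array left out and the 16 with 1 array of each group left out. Over those 16 the brighter *Cckbr* probe lay between 0.068 and 0.36, and the other *Cckbr* probe between −0.00049 and 0.58. *Cckar* was not tested when a probe had to be above background on all 8 arrays, and array weights moved it to −0.42. Same-numbered arrays correlated between −0.0022 and 0.27 in their deviations, with 2 of 4 nearest to their own number, so the number was not taken to pair animals; as a replicate block it left the *Cck* difference at −0.78 and gave 6 DA genes in place of 7, and the adjusted p of *Slc6a5* was 0.396. Over the processing alternatives the *Cck* interneuron median fell as low as 0.12 (array weights), the cortical one ranged from 0.069 to 0.34, the Edinger-Westphal one from −1.05 to −0.38 and the caudal one from 1.09 to 2.43. With 1 array, or 1 of each group, left out, medians ranged from −0.39 to −0.22 for DA, −0.42 to −0.061 for VTA, −1.19 to −0.42 for thalamic, −1.16 to −0.0095 for Edinger-Westphal, −0.26 to 0.64 for cortical, 0.017 to 0.43 for *Cck* interneuron, 1.44 to 2.86 for caudal, −0.013 to 0.24 for GABAergic, −0.054 to 0.17 for pan-neuronal, −0.0018 to 0.18 for glial, −0.015 to 0.077 for processing, −0.11 to 0.081 for granule and −0.12 to 0.037 for receptor signalling genes. The count of lower genes ranged from 3 to 10 for the DA list and from 0 to 6 for the thalamic list. *Pcsk2* reversed to 0.034 with array weights and ranged from −0.29 to 0.077 with arrays left out; with the median of a gene's probes *Pcsk1* reversed to −0.053, and *Ddc* (−0.25), *Foxa1* (−0.34), *Gbx2* (−2.05) and *Pcsk5* (0.13) were no longer at the unadjusted threshold, which left 5 DA and 4 thalamic genes. *Chrna6* was no longer at it with scaling by the 75th percentile (−0.56) or array weights (−0.34), nor *Ddc* with the replicate block, nor *Gbx2* with array weights, with the side of the slide as a block or without a filter on dim probes. The causes were not tested.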
